A study of Mus musculus with 24 samples.

Results

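The mitochondrial ribosomal protein genes were taken as every gene whose symbol starts with Mrpl or Mrps and a number, that has a protein-coding transcript type and that is not named as a pseudogene. Of the 55385 genes of the table, 83 had such a symbol, 5 of these were pseudogenes, and 78 remained. All 78 passed the filter for testing, for which 3 of the 24 libraries had to reach 1 FPKM (fragments per kilobase of exon, scaled to the library total). The large subunit of the mitochondrial ribosome holds 51 of the products and the small subunit 26. Mrps36 was placed in neither, since its product is now known as a subunit of the 2-oxoglutarate dehydrogenase complex. Mrps30 and Mrps18a carry small-subunit names, but their products sit in the large subunit and were counted there.

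RNA was sequenced from P815, a mouse mast cell tumour line, in 8 groups of 3 libraries. NC cells carried a negative control vector and SH cells a vector with a short hairpin RNA against Esr1, the gene of estrogen receptor alpha. ICI cells received the estrogen receptor antagonist ICI-182780 (fulvestrant) and Tamo cells the selective estrogen receptor modulator tamoxifen. NC_E2, SH_E2, ICI_E2 and Tamo_E2 were the same 4 arms plus E2 (β-estradiol). Treatment lasted 24 h by the labels, which state no time for NC and SH. All cells grew in medium with fetal bovine serum, and no group is labelled as vehicle only. No label mentions a vector in the ICI and Tamo arms. A comparison of ICI or Tamo with NC may therefore combine the drug and the vector. Nothing says that the 3 libraries of each group came from separate cultures, so the p-values measure the spread between these libraries, which may be technical. Whether the SH cells were 1 clone or a pool is not stated either.

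The mitochondrial ribosome translates the few proteins that the mitochondrial genome encodes, all of them subunits of the respiratory chain complexes or of ATP synthase. Its ribosomal RNAs are mitochondrially encoded, whereas all of its proteins are encoded in the nucleus, made in the cytosol and imported. Compared with its bacterial relative it has less RNA and more protein, so its proteins fall into those with a bacterial counterpart and those that are specific to mitochondria. Among the 78 genes, the fixed classes held 30 shared and 21 mitochondria-specific large-subunit proteins, and 16 shared and 10 mitochondria-specific small-subunit proteins. The transcription factors NRF1, GABP (an ETS-family factor) and YY1 are known to act at many nuclear genes of mitochondrial proteins.

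The genes lay on 17 chromosomes, with 11 on chromosome 11 and 8 on chromosome 17, in GRCm38 coordinates. Chromosomes 3 and 19, which are described below for the SH comparison, held 5 each. A protein-coding gene on the opposite strand started within 1000 bases of 32 of the 78 genes. Such pairs are called divergent below, although some of them overlap. Mrpl46 and Mrps11 form such a pair with each other, with starts 412 bases apart, and they overlap.

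Promoter windows from RefSeq (GRCm38.p6), from 250 bases before to 50 bases after the start, were found for 69 of the 78 genes. The windows were searched on both strands for the NRF1 consensus and for the letters CCGGAAG (ETS), AAGATGGC (YY1), GGGCGG (SP1) and CACGTG (E-box). An ETS match stood in 26 of the 69 genes (37.7%), against 9.93% of all genes in the promoter table and 23.1% of the protein-coding genes tested here. An NRF1 match stood in 13 (18.8%, against 5.19% and 13.1%) and a YY1 match in 12 (17.4%, against 3.19% and 5.98%). The SP1 letters were in 34 (49.3%, against 38.2% and 70.7%) and the E-box in 5 (7.25%, against 8.09% and 12.4%). Either an NRF1 or an ETS match was present in 35 genes, and 4 genes held both. Of the 31 ETS matches 28, and of the 16 NRF1 matches 14, lay within 100 bases of the start. These are matches of letters and not measured binding sites.

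The 250 bases before the start are shown for 4 genes, 5′ to 3′ on the gene's strand, because each holds a match and is named in the results. Mrps21 (chr3:95871515-95871764, minus strand), Mrpl9 (chr3:94443086-94443335, plus strand) and Mrpl12 (chr11:120484387-120484636, plus strand) hold an NRF1 match, and Mrpl43 (chr19:45006443-45006692, minus strand) holds a pair of ETS matches. Capitals mark the matches.
Mrps21: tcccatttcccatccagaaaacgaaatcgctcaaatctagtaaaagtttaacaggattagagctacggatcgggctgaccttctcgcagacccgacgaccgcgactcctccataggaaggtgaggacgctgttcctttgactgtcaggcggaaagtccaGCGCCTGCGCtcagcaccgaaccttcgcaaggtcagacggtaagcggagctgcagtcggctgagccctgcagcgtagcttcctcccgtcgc
Mrpl9: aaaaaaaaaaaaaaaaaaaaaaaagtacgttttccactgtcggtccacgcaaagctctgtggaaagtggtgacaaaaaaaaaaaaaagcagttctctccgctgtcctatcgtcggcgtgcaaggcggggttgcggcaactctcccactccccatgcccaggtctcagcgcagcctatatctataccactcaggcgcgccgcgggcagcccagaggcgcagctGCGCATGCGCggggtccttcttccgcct
Mrpl12: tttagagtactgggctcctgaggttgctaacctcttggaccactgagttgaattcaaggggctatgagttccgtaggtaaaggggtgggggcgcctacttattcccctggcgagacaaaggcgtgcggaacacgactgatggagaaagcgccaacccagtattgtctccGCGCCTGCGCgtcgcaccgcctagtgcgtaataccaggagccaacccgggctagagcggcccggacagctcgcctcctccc
Mrpl43: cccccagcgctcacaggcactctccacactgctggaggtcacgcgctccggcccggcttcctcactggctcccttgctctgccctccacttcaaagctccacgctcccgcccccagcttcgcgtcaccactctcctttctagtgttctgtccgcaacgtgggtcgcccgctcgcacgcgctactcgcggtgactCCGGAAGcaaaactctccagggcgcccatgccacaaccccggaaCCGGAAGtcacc
The first match base lies at -91 in Mrps21, -28 in Mrpl9 and -81 in Mrpl12, counted from the start, and at -56 and -12 in Mrpl43. Mrps21 holds a further ETS match at 18 after the start. Mrpl24, Mrpl10, Mrpl16, Mrpl36 and Mrpl37, which also changed in the SH comparison below, had neither an NRF1 nor an ETS match in the window.

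The libraries held 42.1 to 68.8 M estimated counts (M for mega, median 54.2), and the 78 genes took 0.338% to 0.482% of them. Of 10 mast cell markers, 6 had 1 FPKM or more in every library, and the list summed to 613 to 1029 FPKM. Kit stood at 98.3 to 175 FPKM and Cpa3 at 134 to 586, while Ms4a2, the beta chain of the high-affinity IgE receptor, had a median of 0.0726 FPKM. The summed lists of T cell, B cell, epithelial and fibroblast markers stayed at or under 2.41 FPKM, and the macrophage list reached 16.8 to 26.1 FPKM through Cd68. Esr1 itself was listed at 0.161 to 0.520 FPKM in all libraries and was under the filter. Its mean was 0.342 ± 0.135 FPKM (SD, n = 3) for NC against 0.278 ± 0.0620 for SH, and 0.314 ± 0.0781 for NC_E2 against 0.215 ± 0.0369 for SH_E2. Both means were lower with the hairpin. The difference was smaller than the SD of NC without E2 and larger than both SDs with E2, and no test was made at these low levels.

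The 78 genes spanned a 51.1-fold range of mean FPKM, from 2.52 for Mrpl48 to 129 for Mrpl10, with a median of 18.5. The 5 highest were Mrpl10 and Mrpl12, the proteins of the stalk that recruits translation factors, at 129 and 90.1 FPKM, Mrpl18, a protein of the central protuberance, at 75.2, Mrps21 at 68.3 and Mrpl20 at 65.0. The 5 lowest were Mrpl48 at 2.52 FPKM, Mrpl53 at 3.35, Mrpl23 at 4.0, Mrpl58 at 4.39 and Mrps35 at 4.77. Mrpl58 is a peptidyl-tRNA hydrolase that rescues stalled ribosomes and has become part of the large subunit. Most of the products are present as a single copy in each ribosome. Of the 78 genes, 48 had mean levels within 2-fold of the median.

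**Figure D1:**
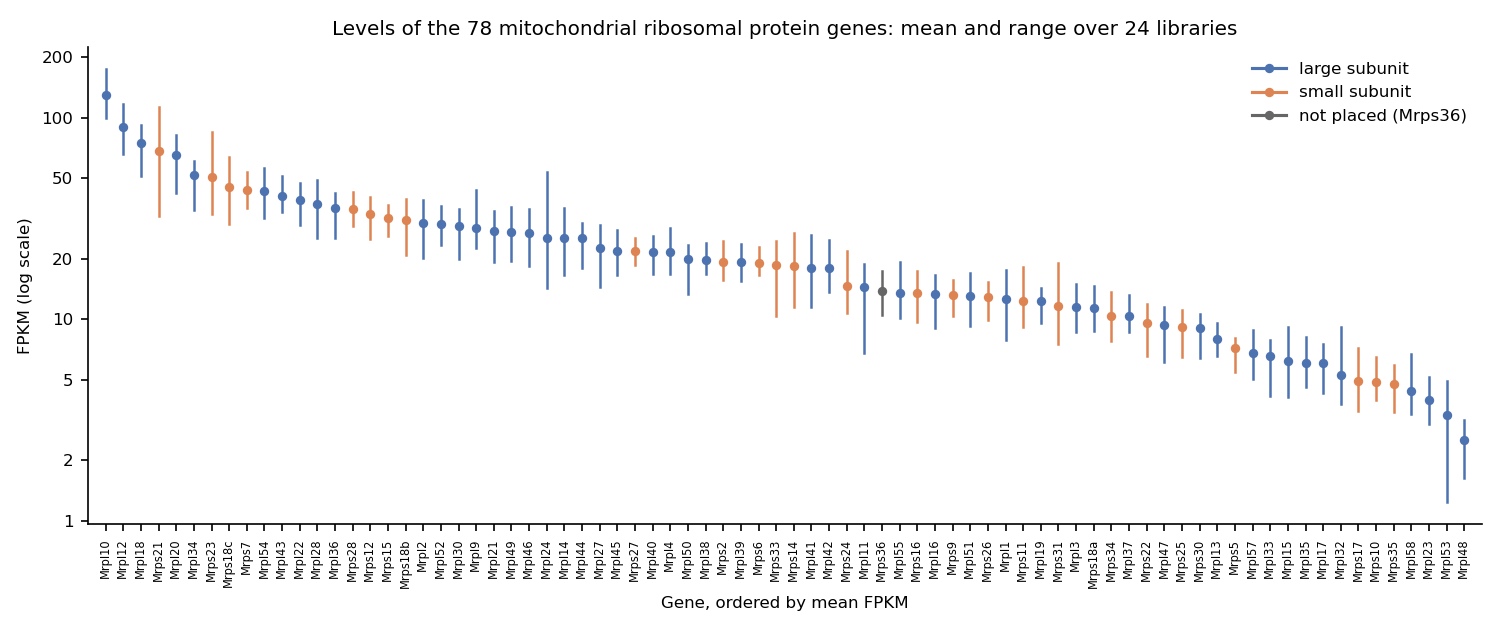
Mean FPKM (points) and range over the 24 libraries (lines) of the 78 genes on a log axis, ordered by the mean, with large-subunit genes in blue, small-subunit genes in orange and Mrps36 in grey. The means fall from 129 for Mrpl10 to 2.52 for Mrpl48, and both subunits are spread over the whole order.

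The levels between genes depend on the length that the deposited FPKM divide by. For each of the 78 genes, the length implied by the deposited count and FPKM was 1.12 to 1.13 times the merged exons of all GENCODE M21 isoforms. The merged exons were over 2 times as long as the principal mRNA in 20 genes. On the scale of FPKM per principal mRNA, levels ran from 3.81 for Mrpl53 to 142 for Mrpl20, and the spread between genes was no smaller (SD of log2 1.17 on both scales). Mrpl33 moved from rank 67 of 78 on the deposited scale to rank 5, because its merged exons were 15.3 times its principal mRNA. On both scales r was -0.70 across the 78 genes between log2 level and log2 length. The level is itself divided by that length, so r would be negative even for counts unrelated to length. It therefore cannot show whether shorter genes are more highly expressed. That r describes genes that share libraries and counting, and carries no test. Mrpl48 is uncertain for a further reason, since its pseudogene Mrpl48-ps took estimated counts equal to 71.8% of those of Mrpl48.

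Among the 3 homologs of bacterial protein S18, Mrps18c averaged 45.2 FPKM, Mrps18b 31.0 and Mrps18a 11.4. Their ranges over the libraries were 29.7 to 63.9, 20.8 to 39.6 and 8.73 to 14.6 FPKM, so Mrps18a lay under both others in each library, while Mrps18b and Mrps18c overlapped. Mrps12, whose product lines the decoding centre, averaged 33.2 FPKM, Mrps30 9.07 and Mrps36 13.8. The 5 genes with the largest spread over the 24 libraries were Mrpl24 (SD of log2(FPKM + 1) 0.53), Mrps21 (0.48), Mrps23 (0.39), Mrpl41 (0.38) and Mrps33 (0.37). The spread of Mrps23 came from 5 libraries, 1 each of NC, SH, ICI_E2, Tamo and Tamo_E2, that read 69.2 to 84.8 FPKM against at most 48.8 in the other 19.

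The summed FPKM of the 78 genes averaged 1729 ± 105 for NC and 1856 ± 86.8 for NC_E2 (SD, n = 3 in each group), and 1972 ± 80.7 for SH and 2005 ± 65.2 for SH_E2. The drug groups averaged 1727 ± 144 (ICI), 1858 ± 90.8 (ICI_E2), 1770 ± 285 (Tamo) and 1747 ± 76.9 (Tamo_E2). The 3 SH libraries lay above the 3 NC libraries, at 1898, 1962 and 2058 against 1667, 1669 and 1849. With E2 the sums overlapped, since replicate 3 of SH_E2 (1952) lay below replicate 3 of NC_E2 (1956). FPKM is scaled to the library total, and the TMM factors, which correct for composition, were 1.01 to 1.05 in the SH and SH_E2 libraries against 0.982 to 1.004 in NC and NC_E2. The lowest library was replicate 2 of Tamo at 1450, and it held the minimum of 37 of the 78 genes and also the lowest summed level of cytosolic ribosomal proteins (25200 FPKM). In bulk RNA, fewer cells with a transcript and less of it per cell cannot be told apart. The summed level of the large subunit was 2.08 to 2.49 times that of the small subunit, and this ratio moved with the replicate number, at 2.08 to 2.14 in all 8 libraries numbered 1, 2.16 to 2.31 in those numbered 2 and 2.10 to 2.49 in those numbered 3.

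**Figure D2:**
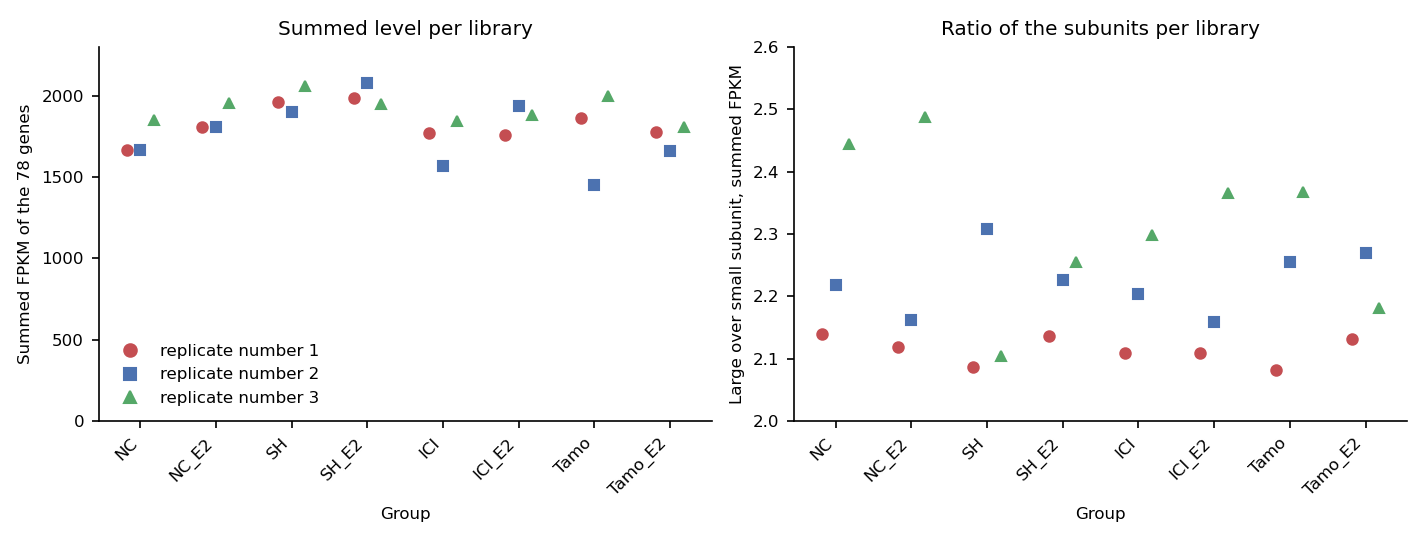
Summed FPKM of the 78 genes (left) and ratio of the summed large-subunit to small-subunit FPKM (right, axis from 2.0) for each of the 24 libraries, by group, with shape and colour for the replicate number. Replicate 2 of Tamo is lowest at 1450, and the libraries numbered 1 have ratios of 2.08 to 2.14.

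The first question was whether E2 moved these genes. None of the 78 genes passed the test (edgeR's quasi-likelihood test, Benjamini-Hochberg adjusted p under 0.05 over 12183 genes) for E2 in NC, SH, ICI or Tamo. In each of these 4 arms 0.0% of all genes tested passed, so the genes did not stand apart from the rest in this count. In the mean over the 4 arms 0.0575% of all genes (7 of 12183) and 0 of the 78 passed. At an unadjusted p under 0.05, the counts among the 78 were 0 in NC, 0 in SH, 1 in ICI, 0 in Tamo and 0 in the mean. Among all 12183 genes they were 244, 163, 224, 434 and 295 in the same order. So few genes reached that p that counts of 0 or 1 among 78 say little about the members. DESeq2 and limma also called 0 of the 78 in each arm. The median log2 fold change was 0.08 in NC with 67 of 78 above 0, 0.02 in SH with 48, 0.13 in ICI with 73, -0.03 in Tamo with 34 and 0.06 in the mean with 71.

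The median over all genes tested was between -0.01 and -0.00 in these arms. The 77 cytosolic ribosomal protein genes tested had medians of the same sign as the 78 in each arm and in the mean, at 0.12, 0.07, 0.15, -0.06 and 0.07. The genes share their libraries, so the count above 0 is 1 description per arm and not 78 separate ones. Without replicate 2 of Tamo, the library with the lowest sum, the Tamo median was -0.15, and without replicate 3 of Tamo it was 0.10. It was also above 0 without replicate 1 of Tamo. With 1 library left out, the NC median ran from 0.04 (without replicate 3 of NC_E2) to 0.15 (without replicate 3 of NC) and the ICI median from 0.05 (without replicate 2 of ICI) to 0.18 (without replicate 3 of ICI). The SH median ran from -0.01 (without replicate 2 of SH_E2) to 0.06 (without replicate 3 of SH_E2). The standard error of a single member's log2 fold change had a median of 0.17 in an arm and of 0.08 in the mean over arms.

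The 3 genes of smallest p in each arm are listed with their values only. In NC they were Mrpl14 at 0.35, Mrpl17 at 0.36 and Mrps12 at 0.31, and in SH Mrps6 at 0.15, Mrpl39 at 0.16 and Mrps23 at -0.40, all as log2 fold changes that did not pass. In ICI they were Mrps18b at -0.38, Mrpl27 at 0.45 and Mrps27 at 0.20, and in Tamo Mrpl44 at 0.25, Mrps18b at 0.25 and Mrps18a at -0.21. Mrps18b had 30.1, 34.0 and 33.3 FPKM in ICI and 26.7, 26.9 and 20.8 in ICI_E2. These groups did not overlap, but the edgeR adjusted p was 1 (SE 0.17, unadjusted p 0.0393, lower in 3 of 3 numbered pairs). In the mean over arms Mrpl44 stood at 0.13, Mrps6 at 0.10 and Mrpl39 at 0.11, higher with E2 in 9, 10 and 10 of 12 pairs. The E2 response of SH, ICI or Tamo minus that of NC passed for 0 of the 78 genes and for 0.0% of all genes. An unadjusted p under 0.05 was reached by 0, 1 and 1 of the 78 and by 139, 132 and 495 of all genes. The smallest p were those of Mrpl14 (-0.42), Mrpl17 (-0.37) and Mrps12 (-0.31) in SH, Mrps18b (-0.57), Mrpl17 (-0.52) and Mrps24 (0.49) in ICI, and Mrpl14 (-0.59), Mrps12 (-0.46) and Mrpl4 (-0.38) in Tamo. These differences share the E2 response of NC, in which Mrpl14, Mrpl17 and Mrps12 were the genes of smallest p.

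The second question was how the genes differed between SH and NC. Without E2, 5 of the 78 genes passed, 4 higher in SH and 1 lower, against 9.07% of all genes tested (4.92% higher, 4.15% lower). With E2, 5 passed, 3 higher and 2 lower, against 9.59% (5.3% higher, 4.28% lower). Over both E2 conditions 11 passed, 6 higher and 5 lower, which is 14.1% of the 78 against 20.7% of all genes (10.6% higher, 10.0% lower). The share of called genes was thus under the background in all 3. The median log2 fold change of the 78 was 0.08, 0.04 and 0.07, with 50, 47 and 49 above 0. In limma on log2(FPKM + 1) the medians were 0.13, 0.08 and 0.12. With 1 library left out, the edgeR median with E2 ran from -0.00 (without replicate 2 of SH_E2) to 0.09 (without replicate 3 of NC_E2). Mrpl9, Mrpl10, Mrps21 and Mrps33 passed both without and with E2, so 4 of 5 called genes were shared (80% of each list). Of all genes tested 864 passed both, which is 78.2% of those without and 74.0% of those with E2. The comparisons share no library, and their log2 fold changes had r = 0.88 over the 78 genes and 0.61 over all genes tested.

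Replicate numbers paired the libraries, and with the number as a block 10, 9 and 20 of the 78 passed (without E2, with E2 and over both), against 2572, 2667 and 4293 of all genes. Each of the genes named above also passed with the block. The block added Mrpl24, Mrpl36, Mrpl16, Mrpl37 and Mrps11 without E2, Mrpl24, Mrpl16, Mrpl43 and Mrpl23 with E2, and Mrps11, Mrps31, Mrpl54, Mrpl45, Mrps14, Mrps7, Mrpl23, Mrpl52 and Mrpl49 over both. In the blocked fit the 9 added over both had log2 fold changes from -0.29 for Mrpl23 to 0.31 for Mrps11. On log2(FPKM + 1) in limma, which keeps the scaling to library totals, 14 passed over both conditions, with 10 higher and 4 lower (71.4% higher, against 54.5% in edgeR).

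**Figure D3:**
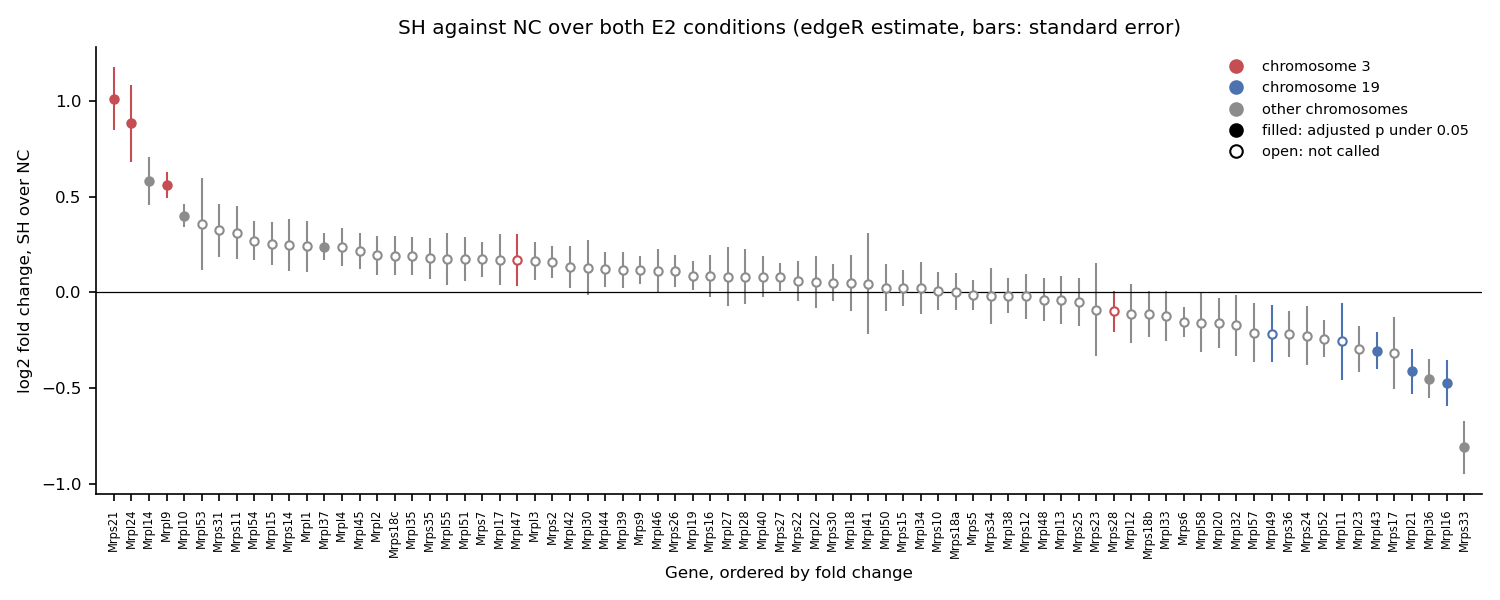
log2 fold change of each of the 78 genes in SH over NC across both E2 conditions, with its standard error, ordered by size and coloured by chromosome. Filled points passed at an adjusted p under 0.05. Of the 11 filled points, 3 of the 6 higher lie on chromosome 3 and 3 of the 5 lower on chromosome 19.

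Mrps21 encodes the homolog of bacterial S21 in the small subunit (chr3:95862634-95871519, minus strand). It read 32.5, 55.4 and 36.3 FPKM in the NC libraries and 71.6, 53.1 and 35.8 in the NC_E2 libraries. The SH libraries read 112, 86.7 and 97.4 and the SH_E2 libraries 102, 103 and 88.9. The lowest SH library stood above the highest of the other 18 libraries (76.0), and the 6 NC and NC_E2 libraries themselves differed by more than 2-fold. Over both conditions the log2 fold change was 1.01 (SE 0.16, edgeR adjusted p = 0.000151). It was 1.19 without E2 (edgeR adjusted p = 0.00219) and 0.83 with E2 (adjusted p = 0.0278). The call with E2 was lost without replicate 2 or 3 of NC_E2 or replicate 1 or 2 of SH_E2, with adjusted p up to 0.15.

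Mrpl9, whose product is the counterpart of bacterial L9 (chr3:94443318-94448708, plus strand), read 25.2, 23.2 and 23.9 FPKM in the NC libraries and 25.5, 25.9 and 27.0 in the NC_E2 libraries. The SH libraries read 43.7, 36.7 and 33.5 and the SH_E2 libraries 42.1, 38.3 and 36.9. All 6 SH libraries were above the other 18, whose highest was 27.2. Its log2 fold change was 0.56 (SE 0.07, edgeR adjusted p = 6.1e-06), with 0.60 without and 0.53 with E2.

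Mrpl24 encodes the counterpart of bacterial L24, an early assembly protein of the large subunit (chr3:87919506-87923672, plus strand). It read 24.8, 19.1 and 16.9 FPKM in the NC libraries and 29.6, 19.3 and 17.2 in the NC_E2 libraries. The SH libraries read 54.1, 33.1 and 31.6 and the SH_E2 libraries 53.2, 37.0 and 34.4. The library numbered 1 was the highest in each of these groups, and each SH library was above the NC library of its number. The log2 fold change was 0.88 (SE 0.20, edgeR adjusted p = 0.00326). It did not pass without E2 (0.90, adjusted p = 0.0528) or with E2 (0.86, adjusted p = 0.0643), and passed both with the block (edgeR adjusted p = 2.04e-06 and 2.13e-06). Rrnad1, which overlaps Mrpl24, had a log2 fold change of 0.34 (SE 0.17) that did not pass, and without a stated strand protocol reads of such pairs cannot be told apart.

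Mrpl10, the stalk base protein (chr11:97041560-97049213, plus strand), read 116, 123.3 and 110.0 FPKM in the NC libraries and 115, 119 and 125 in the NC_E2 libraries. The SH libraries read 160.3, 164 and 159 and the SH_E2 libraries 163, 175 and 149. The SH libraries lay above all 18 others (at most 128). The log2 fold change was 0.40 (SE 0.06, edgeR adjusted p = 7.7e-05). Mrpl12, the other stalk protein, did not pass, with 66.1, 89.6 and 103 FPKM in SH against 76.5, 79.7 and 102 in NC.

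Mrpl14, which lies at the interface of the subunits (chr17:45686322-45698495, plus strand), read 16.5, 19.6 and 19.1 FPKM in NC and 31.3, 32.6 and 35.7 in SH. With E2 the values were 23.2, 17.2 and 30.1 in NC_E2 and 30.8, 33.3 and 30.6 in SH_E2, so the E2 groups were separated by a narrow gap. The log2 fold change was 0.58 over both conditions (SE 0.12, edgeR adjusted p = 0.00201), 0.79 without E2 (adjusted p = 0.006) and 0.37 with E2, where it did not pass. The difference between those responses was -0.42 (SE 0.25) and did not pass.

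Mrpl37, a mitochondria-specific protein of the large subunit, had the smallest called change, 0.24 (SE 0.07, edgeR adjusted p = 0.0214). Its 6 SH libraries read 10.7 to 13.2 FPKM against 8.66 to 10.5 in the 6 NC libraries. The call was lost without replicate 1 of NC, replicate 3 of NC_E2, replicate 1 of SH or replicate 2 of SH_E2, and with no filter.

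Mrps33, a mitochondria-specific small-subunit protein (chr6:39801804-39810988, minus strand), was the gene that fell the most. It read 21.3, 17.3 and 20.9 FPKM in the NC libraries and 23.4, 24.3 and 20.2 in the NC_E2 libraries. The SH libraries read 14.4, 10.4 and 11.8 and the SH_E2 libraries 16.2, 11.1 and 11.6. The SH and NC libraries did not overlap, but replicate 2 of Tamo, at 12.1, reached the SH level. The log2 fold change was -0.81 (SE 0.14, edgeR adjusted p = 0.000245). Without E2 it was -0.76 (edgeR adjusted p = 0.0161), and that call was lost without replicate 1 or 3 of NC or replicate 2 or 3 of SH (adjusted p up to 0.0739).

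Mrpl36, the counterpart of bacterial L36 (chr13:73328513-73332178, plus strand), read 38.1, 34.5 and 39.0 FPKM in the NC libraries and 41.3, 39.4 and 42.3 in the NC_E2 libraries. The SH libraries read 30.3, 25.3 and 32.2 and the SH_E2 libraries 28.4, 30.9 and 30.9. Every SH library was under every NC library. The log2 fold change was -0.45 (SE 0.10, edgeR adjusted p = 0.00303). With E2 alone it was -0.50 (edgeR adjusted p = 0.0334), a call that was lost without any 1 of the 6 libraries (adjusted p up to 0.121).

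**Figure D4:**
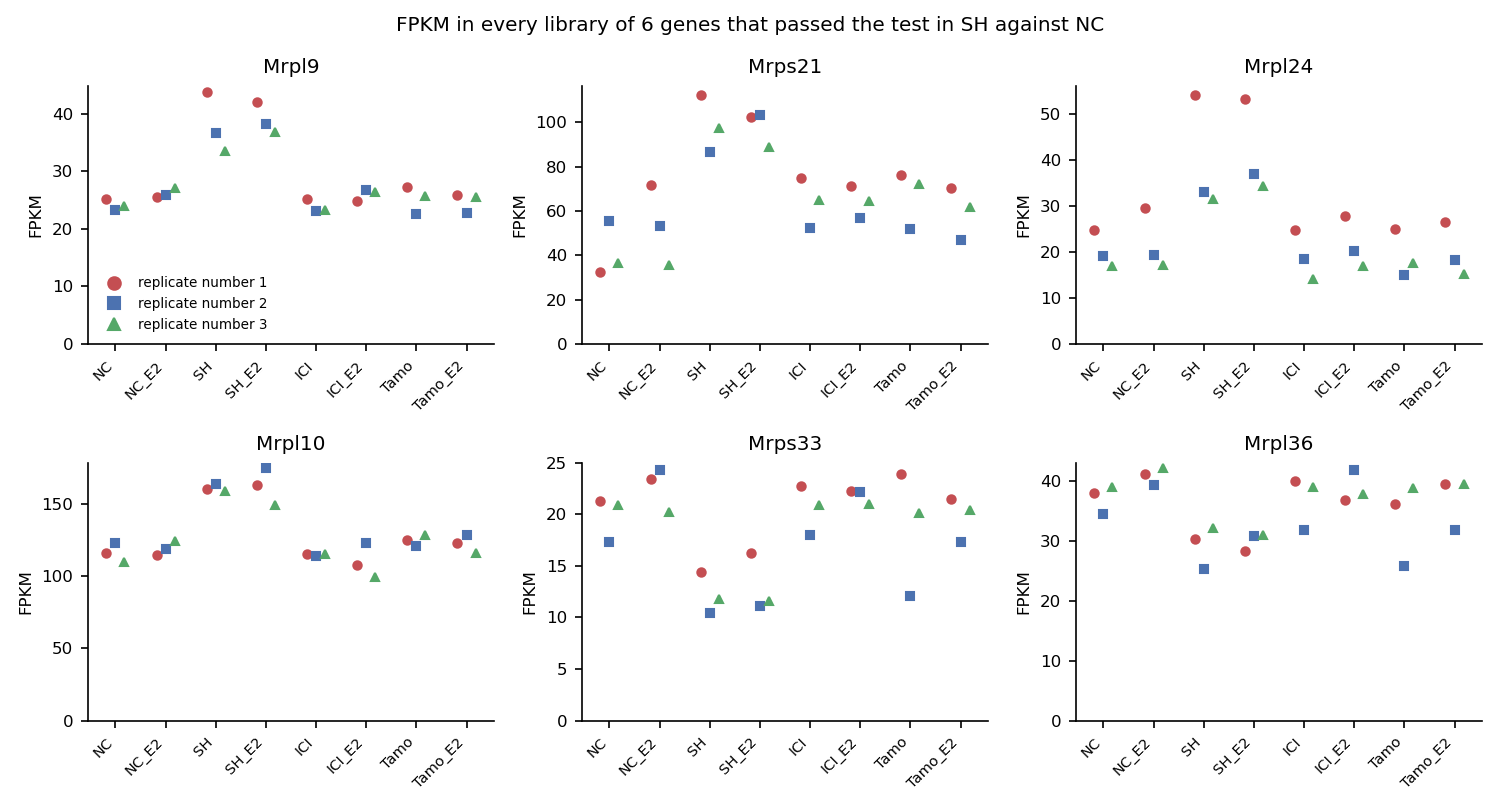
FPKM in each of the 24 libraries, by group, of 6 of the 11 genes that passed in SH against NC, with shape and colour for the replicate number and each axis starting at 0. Mrpl9, Mrps21 and Mrpl10 are higher in all 6 SH libraries than in the other 18, Mrpl24 also differs by replicate number, and Mrps33 and Mrpl36 are lower in the SH libraries than in the NC libraries.

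The 3 other genes that fell were Mrpl16, which sits near the peptidyl transferase centre, Mrpl21 and Mrpl43, and all 3 lie on chromosome 19. Mrpl16 read 9.04 to 12.1 FPKM in the 6 SH libraries and 12.6 to 16.4 in the 6 NC libraries, a log2 fold change of -0.47 (SE 0.12, edgeR adjusted p = 0.00772). Mrpl21 read 19.6 to 26.2 against 27.0 to 32.7 FPKM (-0.41, SE 0.12, edgeR adjusted p = 0.0161). Mrpl43 read 34.9 to 38.5 against 39.3 to 51.6 FPKM (-0.31, SE 0.10, edgeR adjusted p = 0.0292). In each of these genes every SH library was under every NC library. The Mrpl43 call was lost without replicate 3 of NC, NC_E2 or SH_E2 or replicate 2 of SH, in limma with either pseudocount and with no filter, with adjusted p up to 0.0932.

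All 5 members on chromosome 19 had negative fold changes, with Mrpl11 at -0.26 and Mrpl49 at -0.22 not passing. Of the 5 members on chromosome 3, Mrpl47 at 0.17 and Mrps28 at -0.10 did not pass. These chromosomes were looked at because earlier results of these data showed their genes shifted in SH. Of all genes tested, 31.7% on chromosome 3 (140 higher and 49 lower of 597) and 44.0% on chromosome 19 (16 higher and 182 lower of 450) passed, with medians of 0.12 and -0.34. On the other chromosomes 5 of 68 members (7.35%) and 19.1% of all genes tested (2130 of 11136) passed.

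The tested genes within 5 Mb of each called member were summarised to place these values. Around Mrps21, 42 of 98 neighbours were higher and 0 lower, with a median log2 fold change of 0.44, and around Mrpl9 it was 49 higher and 1 lower of 124, with a median of 0.43. The windows of these genes, which start at 95.9 and 94.4 Mb, overlap. Around Mrpl24, at 87.9 Mb, 20 neighbours were higher and 12 lower of 113, and the median was 0.03. Around Mrpl16, Mrpl21 and Mrpl43 the medians were -0.42, -0.34 and -0.30, close to the genes' own values of -0.47, -0.41 and -0.31. Around Mrps33, Mrpl36, Mrpl14, Mrpl10 and Mrpl37 the medians lay between -0.08 and 0.05. The part that a shift of the chromosome region plays in the members' values was not tested.

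Divergent and overlapping neighbours gave a mixed record. Fau, which encodes a ubiquitin-like fusion with a cytosolic ribosomal protein and starts 59 bases from Mrpl49, fell by 0.44 (edgeR adjusted p = 0.011), while Mrpl49 did not pass. Ighmbp2 (-0.38, edgeR adjusted p = 0.0144) fell beside Mrpl21, which it overlaps. Twnk, the mitochondrial DNA helicase, overlaps Mrpl43 and fell by 0.47 (edgeR adjusted p = 0.000941). Of the 30 divergent pairs with both genes tested, both passed in the same direction in 2 (Mrpl21 and Mrpl43 with the partners above) and in opposite directions in 1. The member alone passed in 3, the partner alone in 4, and neither in 20. Cyb5rl (-0.995, SE 0.13, edgeR adjusted p = 1.26e-05) fell 120 bases from Mrpl37, which rose. Among the pairs where the member alone passed, Tmem63b stood at -0.02 beside Mrpl14, Ndufs6, a complex I subunit, at 0.01 beside Mrpl36 and Lrrc46 at 0.13 beside Mrpl10.

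By class, 7 of 30 shared and 2 of 21 mitochondria-specific large-subunit genes passed in SH against NC over both conditions, and 1 of 16 and 1 of 10 small-subunit genes. The share among all genes tested was 20.7%. Among the 7, Mrpl9 and Mrpl24 lie on chromosome 3 and Mrpl16 and Mrpl21 on chromosome 19. Differences between the classes were not tested. The fixed lists of other genes covered mitochondrial translation, mitoribosome assembly, mitochondrial DNA maintenance and transcription, regulators of nuclear mitochondrial genes and mitochondrially encoded genes. Of their 90 tested genes 15 passed, 8 higher and 7 lower, which is 16.7% against 20.7% of all genes. Of 5 mitoribosome proteins without an Mrp symbol, Ptcd3, a small-subunit protein, fell (-0.28, edgeR adjusted p = 0.0407). Of 22 assembly factors, Fastkd2 rose by 0.27 and Mtg2 (-0.89), Gtpbp10 (-0.76) and Trmt61b (-0.67) fell. Mtg2 and Gtpbp10 are GTPases of large-subunit assembly.

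Of 14 translation factors, Taco1, the translational activator of cytochrome oxidase subunit 1, rose by 0.38. Of 17 mitochondrial aminoacyl-tRNA synthetases 3 rose, among them Tars2 (0.48), and of 8 genes of mitochondrial DNA maintenance and transcription Polg2 (0.44) and Tefm (0.46) rose and Twnk fell. Of 9 regulators tested, Gabpb2, a subunit of GABP, rose by 0.55 and Pprc1, a coactivator related to PGC-1, fell by 0.58, while Nrf1 (-0.19), Gabpa (0.04) and Yy1 (0.08) did not pass. Tars2 and Gabpb2 start at 95.7 and 95.2 Mb of chromosome 3, near Mrps21, and Twnk and Pprc1 at 45 and 46 Mb of chromosome 19, near Mrpl43. Of 13 mitochondrially encoded proteins, mt-Co2 fell by 0.25, and neither of the mitochondrial ribosomal RNAs passed. Of 77 cytosolic ribosomal protein genes tested, 2 rose and 5 fell.

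The third question concerned the estrogen receptor drugs. None of the 78 genes passed between ICI and NC or between Tamo and NC, without E2, with E2 or over both, or between ICI and Tamo. The share of all genes was 0.00821% (1 of 12183) for ICI against NC without E2 and over both conditions and for Tamo against NC without E2, and 0.0% in the other 4 comparisons. DESeq2 and limma called 0 of the 78 in all 7. In edgeR at most 2 of the 78 had an unadjusted p under 0.05 in any of them, against 119 to 430 of all genes. The comparisons with NC share the NC libraries with each other and with SH against NC. The medians of the 78 over both conditions were -0.00 for ICI and -0.05 for Tamo, with 37 and 15 above 0. ICI against Tamo had a median of 0.05, with 60 above 0.

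Mrps21 had the smallest p over both conditions in either drug, with log2 fold changes of 0.45 in ICI (SE 0.16) and 0.43 in Tamo (SE 0.16) that did not pass. It read 75.0, 52.3 and 65.2 FPKM in ICI and 76.0, 52.0 and 72.1 in Tamo, against 32.5, 55.4 and 36.3 in NC. The NC libraries numbered 1 and 3 were lower than each library of the ICI and Tamo arms, and the one numbered 2 was not. Mrpl48 (-0.23) and Mrps18b (-0.19) followed in ICI, and Mrpl14 (0.26) and Mrps24 (-0.27) in Tamo. Mrpl14 stood at 26.3, 26.7 and 27.6 FPKM in Tamo against 16.5, 19.6 and 19.1 in NC without E2, which did not overlap, and its log2 fold change of 0.55 (SE 0.18) had an edgeR adjusted p of 0.9999. In single E2 conditions the smallest p were those of Mrps21 (0.62), Mrpl48 (-0.34) and Mrpl2 (-0.20) for ICI without E2 and of Mrps18b (-0.47), Mrpl17 (-0.36) and Mrps10 (0.20) for ICI with E2. For Tamo they were those of Mrpl14, Mrps21 (0.69) and Mrpl32 (-0.40) without E2 and of Mrps26 (-0.24), Mrps18a (-0.23) and Mrps16 (-0.25) with E2, and none of these passed. Between ICI and Tamo, Mrpl10 (-0.14), Mrpl35 (0.22) and Mrpl32 (0.30) had the smallest p.

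The libraries also differed by replicate number, which every group shares. The split of number 1 from numbers 2 and 3 was chosen with earlier results of these data known. Its p-values therefore describe the size of the difference and are not those of a contrast fixed in advance. Of the 78 genes, 25 passed between libraries numbered 1 and those numbered 2 and 3, with 11 higher and 14 lower, which is 32.1% against 44.1% of all genes tested (22.6% higher, 21.5% lower). The median over the 78 was -0.02, so there was no shared direction. With limma on log2(FPKM + 1), 17 were higher and 12 lower (58.6% higher, against 44.0% in edgeR), and 5542 of all genes tested passed. Mrpl41, a mitochondria-specific large-subunit protein, read 11.5 to 15.1 FPKM in the 8 libraries numbered 1, and its log2 fold change was -0.68 (SE 0.07, edgeR adjusted p = 8.44e-07). It was lower than the mean of the libraries numbered 2 and 3 in 8 of 8 groups. Mrpl24 was higher in 8 of 8 groups (0.60, SE 0.05, edgeR adjusted p = 2.39e-08), as were Mrpl57 (0.40), Mrps14 (0.33), Mrps31 (0.31), Mrpl23 (0.30), Mrpl33 (0.26), Mrps33 (0.25) and Mrps35 (0.21). Mrpl12 (-0.34), Mrpl49 (-0.33), Mrpl18 (-0.29), Mrpl47 (-0.28), Mrpl13 (-0.27), Mrpl17 (-0.26) and Mrps11 (-0.24) were lower in 8 of 8.

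The mitochondrially encoded ribosomal RNAs moved with the same contrast, with a summed level of 542 to 659 FPKM in the libraries numbered 1 and 856 to 1327 in the others. mt-Rnr1 stood at -1.06 (SE 0.04, edgeR adjusted p = 3.05e-11) and mt-Rnr2 at -0.72 (SE 0.05, adjusted p = 6.35e-09). Of the cytosolic ribosomal proteins, 42 of 77 were higher and 0 lower. The part of rRNA content or of library preparation in the members' differences was not tested. By subunit, 5 large-subunit genes were higher and 12 lower, and 6 small-subunit genes were higher and 2 lower. The lower subunit ratio in those libraries is summed from the same genes, so it is not separate evidence.

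Between the libraries numbered 2 and 3, 20 of the 78 genes passed and all 20 were lower in those numbered 2, which is 25.6% against 19.4% of all genes (10.6% higher, 8.78% lower). The median over the 78 was -0.14, and the cytosolic ribosomal proteins had a median of -0.16 with 14 of 77 lower and 0 higher. Large-subunit genes made up 18 of these 20 and 51 of the 78. Mrpl41 was again the most different (-0.50, SE 0.08, edgeR adjusted p = 0.000635), with 14.7 to 20.7 FPKM in the libraries numbered 2 and 21.8 to 26.3 in those numbered 3. It was lower in 8 of 8 groups. Mrpl30 (-0.36), Mrpl20 (-0.33), Mrpl50 (-0.32), Mrpl34 (-0.31), Mrpl49 (-0.31), Mrpl18 (-0.30) and Mrpl1 (-0.29) followed, each lower in at least 7 of 8 groups. In the 4 groups with E2 alone 0 of the 78 passed in edgeR (median -0.00), where 2239 of all genes had an unadjusted p under 0.05 and 147 passed, and in the 4 groups without E2 12 passed (median -0.24), against 989 of all genes (8.12%). Over all 8 groups with 1 library left out, the count among the 78 ran from 12 to 27. It was 13 without replicate 2 of ICI and 12 without replicate 3 of ICI. It was 13 without replicate 3 of Tamo and 13 without replicate 2 of Tamo_E2. In the same order 1759, 1832, 1770 and 1927 of all genes passed, against 2363 with all libraries. Without any of these libraries, the share of the 78 was thus close to that of all genes.

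**Figure D5:**
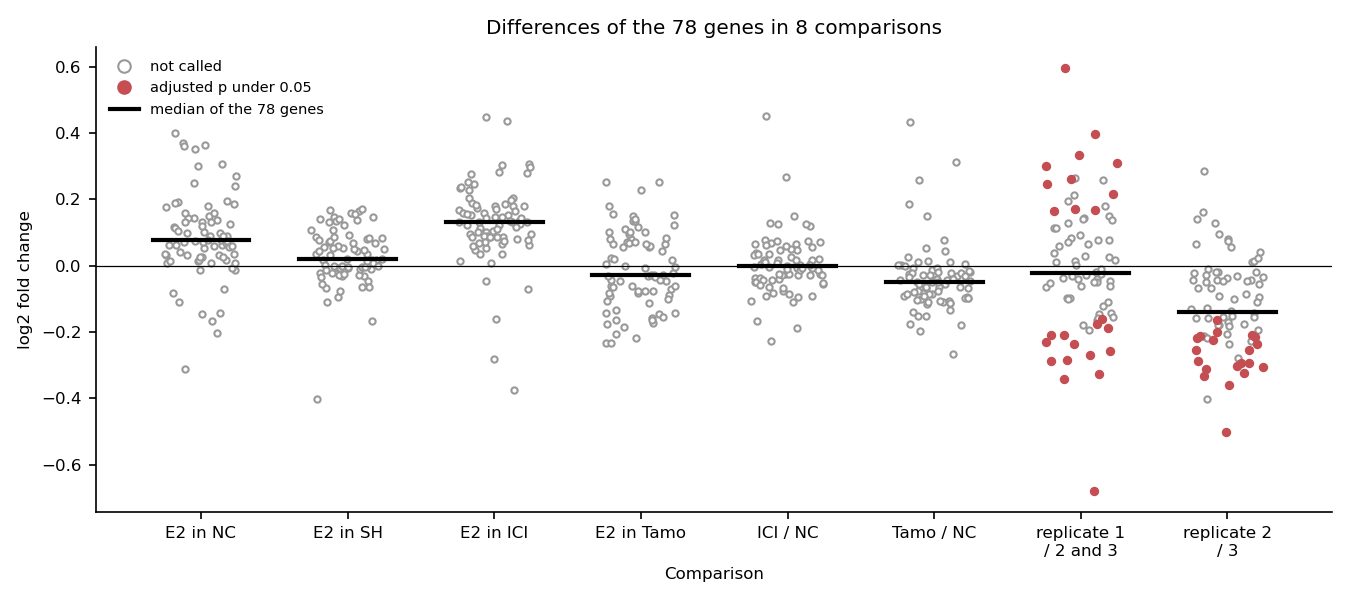
log2 fold change of each of the 78 genes in 8 comparisons (E2 in 4 arms, the drugs against NC over both E2 conditions, and the replicate numbers), with the median as a bar and genes that passed in red. No gene passed in the first 6 comparisons, 25 passed for replicate number 1 and 20 for number 2 against 3.

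The shared level of the 78 genes (mean log2(FPKM + 1) in each library) was compared with every other tested protein-coding gene outside the fixed lists. Over the 24 libraries the most alike were Hint1 (r = 0.92), Hmgn1 (0.92), Atp5a1 (0.91), which encodes the alpha subunit of ATP synthase, Sdhb (0.91), the iron-sulfur subunit of complex II, and Clns1a (0.90). After the group means were removed they were Snrpf (0.97), Uqcrfs1 (0.96), the Rieske protein of complex III, Ndufc2 (0.96), a complex I subunit, Psma7 (0.95) and Snrpd1 (0.94). These r are descriptions over 24 libraries that share replicate numbers and 1 low library, and they were picked as the highest of 9687 genes. The median member had r = 0.53 with the members' mean, from -0.10 for Mrps18b to 0.90 for Mrps26. Once group means were removed, the median member had r = 0.56, from -0.25 for Mrps2 to 0.91 for Mrpl36. On that measure the 6 genes called higher in SH over both conditions had r from 0.01 (Mrpl37) to 0.48 (Mrpl9) with the mean. The 5 called lower had r from 0.69 (Mrps33) to 0.91 (Mrpl36). The members' mean contains each of these genes. The mean of the cytosolic ribosomal proteins had r = 0.76, and 0.84 after removal of group means.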

How the data were processed

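RNA-seq of 24 P815 libraries (8 groups of 3) was used. Per the submitters' processing notes, the authors used cutadapt, HISAT2 and the GRCm38 build. Neither quantifier, annotation nor strand protocol is given in the sources used. The deposited table gives, per gene, estimated counts (whole numbers that pile up at multiples of 4) and FPKM, both made by the authors before deposit. Columns were matched to libraries by title, and 0 columns of other samples were found. Groups come from the titles.

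Genes with 1 FPKM or more in 3 of 24 libraries (12183) were fitted with edgeR 4.0.16 (quasi-likelihood test, TMM, 1 mean per group, all 24 libraries, Benjamini-Hochberg adjusted p under 0.05) in R 4.3.3. Differences between replicate numbers came from the same fit with the number added. Same-numbered libraries deviated together from their group means (r from 0.134 to 0.638 in each pair of 10 comparisons). The numbers, given in the titles, were therefore taken to pair the libraries. The main fit of the groups left this pairing out, and its standard errors and unadjusted counts are those given for E2 and the drugs. With the block in edgeR, 529, 291, 483 and 1073 of all genes had an unadjusted p under 0.05 for E2 in NC, SH, ICI and Tamo. Without it the counts were 244, 163, 224 and 434. Tables and plots used Python 3.11.15, pandas 2.3.3, numpy 2.4.6 and matplotlib 3.10.9.

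Alternatives were the replicate block, DESeq2's size factors (RLE) in edgeR, DESeq2 1.42.0, limma 3.58.1 on log2(FPKM + 1) and log2(FPKM + 0.1), no filter (28735 features), counts divided by 4, and leaving out each library. In data simulated for SH against NC over both E2 conditions (12183 genes, 200 changed), edgeR recovered 73% of 2-fold and 36% of 1.5-fold changes, with 4 false calls.

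Genes were named by a rule: the 5 highest, 5 lowest and 5 most variable members, up to 8 called members without overlap in each direction (else the 3 of smallest p), all members on chromosomes 3 and 19, and 8 with special roles. The members, lists and rule were chosen with earlier results of these data known. The window of 5 Mb around members was chosen after seeing the data. Depth limits low genes, which had as few as 60 estimated counts in a library.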

Additional observations from a re-analysis of the deposited data

Results flagged for a closer look

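Of the 5 pseudogenes, which the comparisons above leave out, Mrpl48-ps and Mrpl23-ps1 stayed in every library above the limit that a count of 0 allows (taken as 12 estimated counts in a library), and the other 3, named for Mrps36, did not. Mrpl48-ps, on chromosome 4 (88599175 to 88599810), read 16.1 to 27.0 FPKM with a median of 23.6 and 610 to 1206 estimated counts, against a median of 2.56 FPKM for Mrpl48. Mrpl23-ps1, on chromosome 2 (74591330 to 74591909), read 0.434 to 2.03 FPKM with a median of 1.30 and 16 to 72 estimated counts, which is 3.70% of the counts of Mrpl23. How the counting split reads between a gene and its pseudogene was not tested.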

How the results depend on the processing

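Of 358 member counts under an alternative, 344 stayed within 1.5 times the main count and 14 did not. Most of the 344 belong to the E2 and drug comparisons, where the main count and every alternative were 0. All 14 that moved lay in SH against NC or between replicate numbers. Of 1779 values of single named members 241 lost their call and 0 reversed. With the replicate block, SH against NC called 10 members without E2, 9 with E2 and 20 over both conditions, against 5, 5 and 11, and the block changed no other call. Leaving out 1 library gave 4 to 5 members without E2, 3 to 5 with E2 (3 without replicate 2 of NC_E2 or replicate 1 or 2 of SH_E2) and 9 to 11 over both. Of the 11 members called over both conditions, 9 were called in all 19 settings; Mrpl37 was called in 14 and Mrpl43 in 12. Without a filter, SH against NC called 5, 4 and 9 members.

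Libraries numbered 1 against 2 and 3 called 12 members in the groups without E2 and 17 in those with E2, against 25 in all, and 20 to 32 when 1 library was left out. Of all genes tested, 24.9% passed without E2 and 28.8% with E2, against 44.1% in all. Libraries numbered 2 against 3 called 20, but 13 with no filter, 12 in the groups without E2, 0 in those with E2 and 12 to 27 when 1 library was left out. There 8.12% of all genes tested passed without E2 and 1.21% with E2. The causes were not tested. Members' medians moved by more than the spread between replicates in 6 of 358 cases, among them Tamo against NC without E2 at 0.12 without replicate 2 of Tamo. Replicate number was not used as a block where it was itself compared. Standard errors of the members' log2 fold changes, from 0.09 to 0.37 for E2 in 1 arm, limit what could be detected.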

Other observations

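Some members stood apart in a few libraries. Mrps23, a mitochondria-specific small-subunit protein, read 69.2 FPKM in replicate 1 of NC, 81.1 in replicate 3 of SH, 81.7 in replicate 2 of ICI_E2, 83.0 in replicate 1 of Tamo and 84.8 in replicate 3 of Tamo_E2, against at most 48.8 in the other 19 libraries. Mrpl32, the counterpart of bacterial L32, read 8.37 FPKM in replicate 2 of NC and 9.17 in replicate 3 of ICI, against at most 5.71 elsewhere. Mrps31 read 18.1 to 19.1 FPKM in replicate 1 of SH and of SH_E2, against at most 12.7 elsewhere, and Mrpl24 was also highest in those libraries. Mrpl53 read 1.24 FPKM in replicate 2 of ICI and 4.92 in replicate 1. Both Mrps31 and Mrpl24 were higher in the libraries numbered 1 in the comparison above. These values were noticed in the data and carry no test.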
